A study of Mus musculus with 16 samples.

Results

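The Dlk1-Dio3 cluster is a group of miRNA genes inside an imprinted region of mouse chromosome 12, and it was followed here through 85 real-time PCR assays among the 741 miRNA assay names of a panel. An assay belonged to the cluster if its name, without species prefix, arm and # sign, was one of 46 miRNA numbers of the locus. The panel held assays for 45 of these numbers, and miR-341 had none. RNA came from whole adrenal glands of C57BL/6 mouse embryos in 4 groups of 4 samples, wild type (WT) and Dicer knockout (KO), each at E15.5 and at E16.5 (days of embryonic development). KO embryos carried Sf1-Cre and 2 lox alleles of Dicer (Sf1-Cre/Dicer lox/lox), and WT embryos were littermates without Cre, from matings of Sf1-Cre/Dicer lox/lox, Sf1-Cre/Dicer +/lox and Dicer lox/lox mice. No label names the Dicer alleles of the WT embryos. Adrenals were pooled by genotype within a litter, and 4 litters served as biological replicates. Sf1-Cre acts in the steroid-producing cells of the gland, so chromaffin, vascular, blood and connective tissue cells keep Dicer. The gland was measured whole, so fewer cells of a type and less RNA per cell cannot be told apart. The panel measures neither Dicer nor the mRNAs that define adrenal cells, so genotype and tissue labels could not be checked with them.

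The region holds the protein genes Dlk1, Rtl1 and Dio3, which are transcribed mainly from the chromosome inherited from the father. The chromosome inherited from the mother gives rise to long noncoding RNAs (Meg3, the antisense transcript of Rtl1, Rian and Mirg), and the miRNAs are cut from these. Dicer releases both strands of a miRNA hairpin, called the 5p and 3p arms, and one of them usually dominates. The bases 2 to 8 of a mature miRNA, its seed, pair with target mRNAs. Members of the cluster are abundant in embryonic, placental and neural tissue, and those antisense to Rtl1 match the Rtl1 mRNA fully. In the RefSeq annotation of GRCm38.p6, the hairpins lie on the plus strand at chr12:109571990-109743795, from miR-673 to miR-410, a span of 171.8 kb. They fall into 4 sections. The first section runs from miR-673 to miR-665, and the next holds the hairpins antisense to Rtl1 (miR-431, miR-433, miR-127, miR-434 and miR-136). Then come miR-341 and miR-370, and the section from miR-379 to miR-410 packs most of the hairpins into 34.7 kb.

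Mature sequences are shown first for the miRNAs with an assay that was lower in KO at E16.5 under both ways of normalizing described below. The seed is in capitals. For miR-543-3p and miR-376a-5p only hsa-miR-543 and mmu-miR-376a# did so, and their other tested assays passed under neither. The sequences come from the RefSeq records of GRCm38.p6, in their order along the locus. In all, 48 mature sequences were matched, and these cover 53 of the 57 tested assays. Only 15 of the tested assays name their arm. For the others the arm was taken from the older naming, in which # marked the minor arm. The sequences of the assays themselves are not in the files, and an assay designed on the human or rat miRNA may differ from the mouse sequence.
mmu-miR-337-3p: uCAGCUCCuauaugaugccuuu
mmu-miR-431-5p: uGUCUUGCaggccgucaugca
mmu-miR-433-3p: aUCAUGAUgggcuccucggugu
mmu-miR-380-5p: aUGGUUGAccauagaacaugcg
mmu-miR-494-3p: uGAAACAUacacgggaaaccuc
mmu-miR-666-5p: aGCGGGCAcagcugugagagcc
mmu-miR-543-3p: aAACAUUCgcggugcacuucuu
mmu-miR-495-3p: aAACAAACauggugcacuucuu
mmu-miR-376a-5p: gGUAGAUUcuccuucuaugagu
mmu-miR-485-3p: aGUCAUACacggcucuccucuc
mmu-miR-410-3p: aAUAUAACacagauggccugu
These 11 miRNAs hold 11 different seeds. miR-487b, whose 2 assays were also lower in both, is named only.

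Over the 48 matched miRNAs there were 47 seeds. The single shared seed, AUGUAAC, belongs to the 3p arms of miR-379 and miR-411, neighbours at one end of the dense section. Both are shown, with miR-154-3p, whose seed is 1 base away from that of miR-485-3p.
mmu-miR-379-3p: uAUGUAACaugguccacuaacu
mmu-miR-411-3p: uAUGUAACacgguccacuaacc
mmu-miR-154-3p: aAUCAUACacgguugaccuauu
Other seeds also differed by 1 base, counted from 1 at the 5′ end. The changes were G2A from miR-379-5p to miR-411-5p, A4G from miR-376b-3p to miR-376a-3p, G4A from miR-300-3p to miR-381-3p, G2A from miR-485-3p to miR-154-3p, G4A from miR-379-3p to miR-410-3p and C4A from miR-154-3p to miR-369-3p. Assays of such close sequences may read each other's target in part, which was not tested.

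Each well gives a threshold cycle (Ct), the cycle at which its signal crosses a threshold, so that a lower Ct stands for more template. A level here is the mean Ct of 5 small RNA controls that are not Dicer products (U6, snoRNA135, snoRNA202, U87 and Y1) minus the Ct of the assay. It is on a log2 scale, and levels of different assays are not compared. Wells with a Ct above 28 or none were taken as undetected and given the value 28. Testing required detection in 3 or more samples of any 1 group, which kept 57 of the 85 cluster assays, for 40 of the miRNA numbers. Of the 57, 45 were detected in all 16 samples. Of the 28 others, 23 were undetected in all 16 samples. Those with a signal in at least 1 sample were hsa-miR-127-5p, hsa-miR-431#, mmu-miR-433-5p, hsa-miR-412 and mmu-miR-540. In several cases another assay of the same miRNA was detected, as for miR-494, miR-370, miR-758 and miR-136. Between 50 and 60 cluster assays were detected per sample, and no cluster assay was detected in 4 samples of 1 group and 0 of another. In the no-template wells the single cluster assay with a Ct was hsa-miR-758, at 33.3, beyond the limit.

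One property of the plates touches every result. The wells of a sample were placed in 16 sub-arrays, which fall into 2 sets of 8, and each sub-array has its own control wells. This layout was inferred from the order of the wells and the fold changes deposited by the authors. Every own-set value below rests on it. The Ct of the controls in set 2 minus that in set 1 was 0.41 ± 0.11 cycles (SD, n = 4) in KO and 1.20 ± 0.83 (SD, n = 4) in WT at E15.5. At E16.5 it was 0.63 ± 0.12 (SD, n = 4) in KO and 1.39 ± 0.70 (SD, n = 4) in WT. In 4 WT samples (replicates 3 and 4 at E15.5, replicates 1 and 2 at E16.5) the gap was over 1.5 cycles. So each change is given against all controls and, where named, against the controls of the assay's own set (own-set controls). Of the tested cluster assays, 39 lie in set 1 and 18 in set 2. The labels do not say what the sets are.

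**Figure D1:**
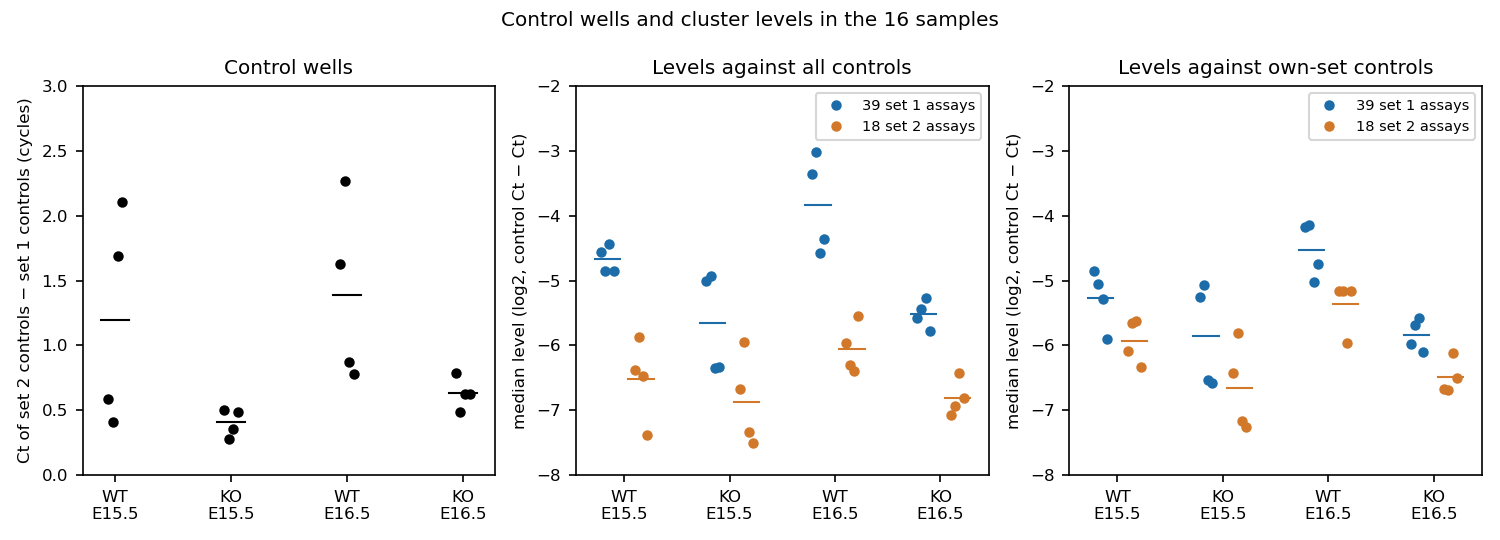
Left, Ct of the set 2 controls minus the set 1 controls in each of the 16 samples (cycles). Middle and right, median level (log2, control Ct minus Ct) of the 39 set 1 and 18 set 2 cluster assays against all controls and against own-set controls. Points are samples and bars are means of 4. The gap spans 0.41 to 2.10 in WT and 0.28 to 0.50 in KO at E15.5, and at E16.5 the KO points lie below the WT points in each set under both references.

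At E16.5 the cluster miRNAs were lower in KO than in WT as a group, about as much as the rest of the panel. Against all controls 27 of 57 cluster assays fell and 0 rose (limma, Benjamini-Hochberg adjusted over all tested assays of the panel), beside 42.2% of all tested assays that fell and 0.587% that rose. The median change was -1.10, beside -1.03 over all tested assays. All 57 changes were below 0, beside 90.6% of all tested assays. In 26 cluster assays each KO sample lay below each WT sample, beside 40.5% of all tested assays. Against own-set controls 17 of 57 fell, beside 32.6%, and the median was -0.95, beside -0.90. The cluster assays that fell under both references numbered 13, and 31 fell under at least 1. The share of all tested assays was not computed for these counts, so they cannot be set beside the panel. The control wells themselves had a mean Ct of 16.66 ± 0.25 (SD, n = 4) in KO and 17.26 ± 0.57 (SD, n = 4) in WT at this age, a difference of -0.59 that enters every change. With no normalization the median change was -0.51, beside -0.44 over all tested assays, 47 of 57 changes were below 0, and 0 of 57 passed in limma, with 6 at an unadjusted p under 0.05, beside 19.6% of all tested assays. With the median of all miRNAs as reference the median was -0.09, and 1 assay was lower and 1 higher. Without the 4 WT samples whose control gap was over 1.5 cycles the median was -0.82, beside -0.78 over all tested assays. There 0 of 54 passed in limma, beside 5 of 312. At an unadjusted p under 0.05 there were then 8 of 37 in set 1 and 2 of 17 in set 2, beside 23.1% of all assays tested in that setting. Leaving out 1 sample at a time, the count of 27 became 11 without WT replicate 2 or KO replicate 4 and 12 without WT replicate 1 or KO replicate 1. Calls over all tested assays were not counted in these fits, so the counts cannot be set beside the panel.

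At E15.5 fewer cluster assays passed. Against all controls 6 of 57 fell and 0 rose (limma, adjusted over all tested assays), beside 12.6% of all tested assays, and 20 had an unadjusted p under 0.05, beside 32.3%. The median change was -0.73, beside -0.62 over all tested assays, and 50 of 57 changes were below 0, beside 80.6%. The 6 were hsa-miR-433, mmu-miR-329, hsa-miR-369-5p, mmu-miR-380-5p, hsa-miR-543 and hsa-miR-382. KO lay below WT in every sample for 9 cluster assays, beside 18.8% of all tested assays. Against own-set controls 1 of 57 fell, hsa-miR-433, beside 7.92% of all tested assays. With the replicate number as a block, 0 of 57 passed in limma, and 16 had an unadjusted p under 0.05, beside 26.7% of all tested assays. Leaving out 1 sample, the count of 6 became 19 without KO replicate 2, 0 without KO replicate 3, KO replicate 4 or WT replicate 3, 1 without WT replicate 4 and 3 without WT replicate 1 (limma). The panel's calls in these fits were not counted, so the counts cannot be set beside it. Without KO replicates 3 and 4 together the median was -0.04, beside -0.12 over all tested assays. There 0 cluster assays passed in limma, beside 7 of 340. At an unadjusted p under 0.05 there were 2 assays of set 1 and 0 of set 2, beside 12.4% of all tested assays. The cluster medians of KO replicates 3 and 4 were -6.80 and -6.89, against -5.70 and -5.46 in KO replicates 1 and 2 and -5.91 to -5.34 in WT. They also had the lowest medians over all tested assays, -7.03 and -7.00.

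**Figure D2:**
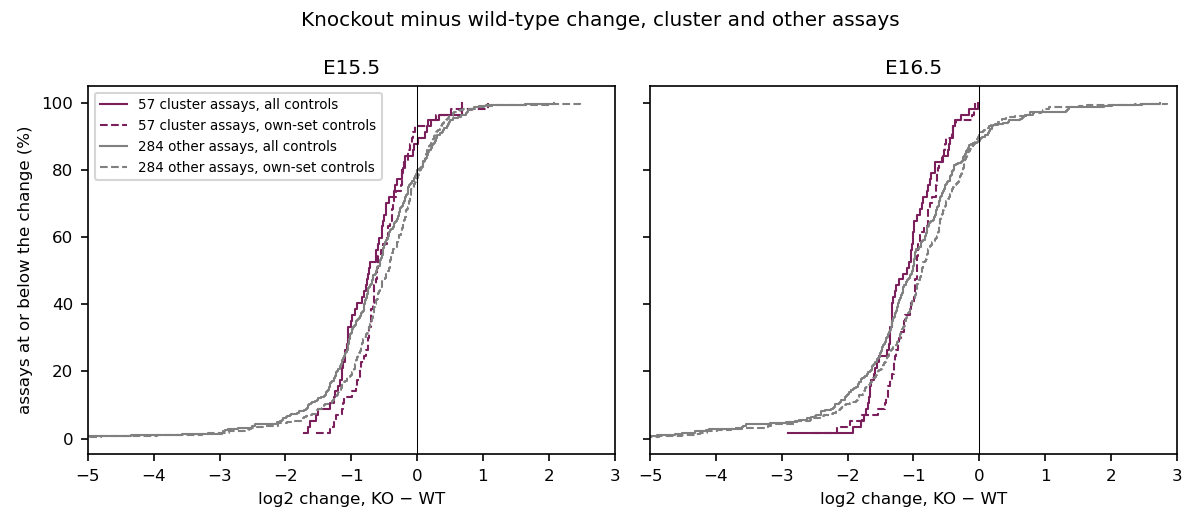
Share of assays (%, y axis) at or below each log2 change of KO minus WT (x axis) at E15.5 and E16.5, for the 57 cluster assays and the 284 other tested assays, against all controls (solid) and own-set controls (dashed). The cluster lines are steeper: at E15.5 the cluster changes run from -1.71 to 0.68 and those of the other assays from -6.72 to 2.09, with medians of -0.73 and -0.62. At E16.5 they run from -2.90 to -0.02 and from -7.98 to 2.75, with medians of -1.10 and -1.01. At each age 2 other assays lie below the plotted range.

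The hairpins antisense to Rtl1 had the lowest median change of the 4 sections at both ages and under both references, which is a description without a test. Their 7 tested assays had a median change of -1.06 at E15.5 and -1.36 at E16.5, with 1 and 5 assays past the threshold, beside 12.6% and 42.2% of all tested assays. Against own-set controls the medians were -0.66 and -0.996, with 1 and 3 past it, beside 7.92% and 32.6%. There the section from miR-379 to miR-410 was close, at -0.65 and -0.95. All antisense assays but hsa-miR-136# lie in set 1, the set with the lower changes against all controls. The section of miR-370 holds only 1 tested assay. The assay hsa-miR-433 passed at both ages under both references in the fit without a replicate block. At E15.5 it read -3.03, -3.39, -2.51 and -2.08 in WT and -3.66, -4.11, -4.34 and -4.20 in KO, so the groups did not overlap. At E16.5 the levels were -2.09, -1.88, -2.80 and -2.83 in WT and -3.96, -3.76, -3.65 and -3.46 in KO, again apart. It fell by 1.33 ± 0.35 (SE) at E15.5, 2.51-fold (limma, adjusted p = 0.0225), and by 1.30 ± 0.35 at E16.5, 2.47-fold (adjusted p = 0.0103). Against own-set controls the changes were -0.93 ± 0.24 and -0.93 ± 0.24 (limma, adjusted p = 0.0287 and 0.0123). With the replicate number as a block the E15.5 call was lost, at an adjusted p of 0.0856 against all controls and 0.0961 against own-set controls (limma). Levels of the 4 WT samples at E16.5 lay closer together against own-set controls than against all controls, from -3.24 to -2.90.

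Next to it lies miR-431. The hsa-miR-431 assay read -0.27, 0.01, -1.04 and -0.88 in WT and -2.56, -2.17, -1.84 and -2.02 in KO at E16.5, without overlap, and fell by 1.60 ± 0.38, 3.04-fold (limma, adjusted p = 0.0071). WT replicates 1 and 2 stood above the others. With own-set controls the WT levels were -1.08, -1.13, -1.48 and -1.27, all close together, and the fall was 1.23 ± 0.32 (limma, adjusted p = 0.015). At E15.5 the level was -1.59, -1.80, -1.19 and -1.05 in WT and -2.13, -1.64, -2.91 and -3.17 in KO. There KO replicate 2 lay among the WT samples, and the change of -1.06 ± 0.38 did not pass (limma, adjusted p = 0.0706).

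The remaining assays of this section depended on the reference. The hsa-miR-127 assay, for the miRNA best known for its full match to Rtl1, read 2.50, 3.06, 1.71 and 2.04 in WT and 0.95, 1.24, 1.71 and 1.34 in KO at E16.5. The lowest WT sample and the highest KO sample were both at 1.71. It fell by 1.02 ± 0.37 against all controls (limma, adjusted p = 0.0381), and the change was -0.64 ± 0.27 against own-set controls (adjusted p = 0.0817). At E15.5 its change was -0.83 (limma, adjusted p = 0.129). Both arms of miR-434 changed alike at E16.5, by -1.36 ± 0.51 for 3p and -1.37 ± 0.49 for 5p (limma, adjusted p = 0.0441 and 0.0336), and neither passed with own-set controls (adjusted p = 0.146 and 0.114). miR-136 had its arms in different sets. The hsa-miR-136# assay, in set 2, changed by -1.01 ± 0.54 (limma, adjusted p = 0.129), and with own-set controls it fell by 1.39 ± 0.45 (adjusted p = 0.0307). The other arm, mmu-miR-136, varied widely, from -9.97 to -6.21 in WT at E15.5, and its change of -1.67 ± 0.95 at E16.5 did not pass (limma, adjusted p = 0.15).

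**Figure D3:**
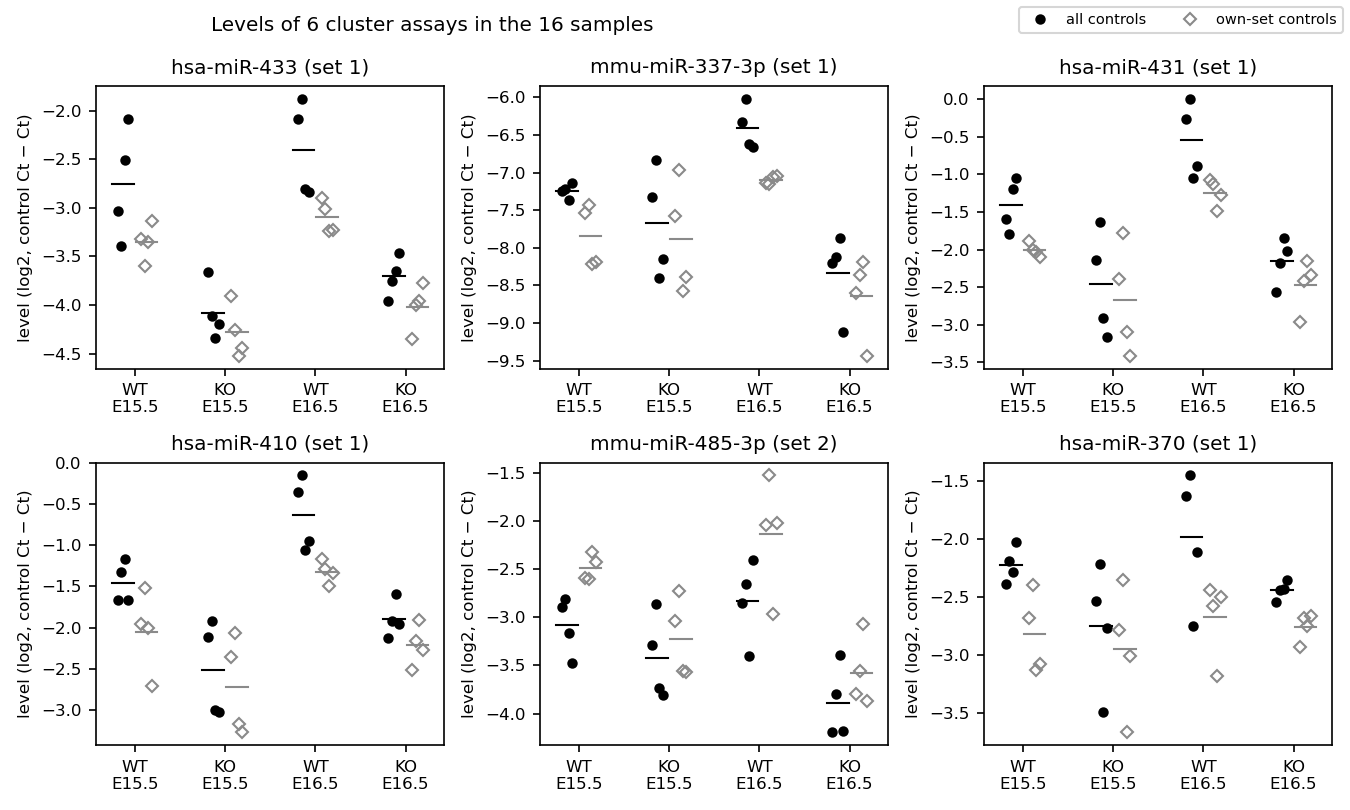
Levels (log2, control Ct minus Ct) of 6 cluster assays in the 16 samples by group, against all controls (filled circles) and own-set controls (open diamonds); bars are means of 4, and each panel has its own scale. KO and WT of hsa-miR-433 do not overlap at either age, those of mmu-miR-337-3p, hsa-miR-431 and hsa-miR-410 are apart at E16.5, and those of hsa-miR-370 overlap at E15.5. The WT samples of hsa-miR-431 at E16.5 span -1.04 to 0.01 against all controls and -1.48 to -1.08 against own-set controls.

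The section from miR-673 to miR-665 held 6 tested assays and had median changes of -0.04 at E15.5 and -0.71 at E16.5, with 0 and 1 past the threshold, beside 12.6% and 42.2% of all tested assays. That one was mmu-miR-337-3p, the cluster assay with the smallest adjusted p at E16.5 against all controls. It read -6.33, -6.02, -6.62 and -6.66 in WT and -8.21, -8.12, -7.88 and -9.12 in KO, so that 1.21 separated the nearest samples. The fall was 1.92 ± 0.38, 3.79-fold (limma, adjusted p = 0.0022), and 1.54 ± 0.37 with own-set controls (adjusted p = 0.008), where the 4 WT samples lay between -7.15 and -7.05. At E15.5 the same assay changed by -0.43 ± 0.38 (limma, adjusted p = 0.448). There KO replicates 1 and 2, at -7.32 and -6.83, lay around the WT levels of -7.37 to -7.13, and KO replicates 3 and 4 lay below, at -8.39 and -8.15. The difference between the ages, -1.49 ± 0.53, was the one with the smallest unadjusted p in the cluster and did not pass (limma, adjusted p = 0.986).

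Its partner arm did not pass at either age. The mmu-miR-337-5p change was -0.98 ± 0.36 at E15.5 and -0.88 ± 0.36 at E16.5 (limma, adjusted p = 0.0743 and 0.0616). mmu-miR-673-3p, at the other end of this section, read -5.42, -5.66, -5.14 and -5.22 in WT and -5.56, -5.53, -5.11 and -5.33 in KO at E16.5. The groups overlapped, and the change of -0.02 ± 0.35 was the nearest to 0 in the cluster at that age (limma, adjusted p = 0.956). Against own-set controls it was -0.40 ± 0.32. mmu-miR-665 was near the detection limit, with levels from -11.31 to -8.26 over the 16 samples. Its change at E15.5, 0.68 ± 0.70, was the highest of the cluster and did not pass (limma, adjusted p = 0.53). The next highest at that age, mmu-miR-300 at 0.68, hsa-miR-154# at 0.33, mmu-miR-673-3p at 0.17 and hsa-miR-493-3p at 0.15, all lie in set 2, and none passed.

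miR-370 was the only miRNA tested between the antisense hairpins and miR-379, because miR-341 had no assay. The hsa-miR-370 assay read -1.63, -1.45, -2.75 and -2.11 in WT and -2.54, -2.44, -2.43 and -2.35 in KO at E16.5, so WT replicate 3 was below every KO sample. Its changes were -0.53 ± 0.34 at E15.5 and -0.46 ± 0.34 at E16.5 (limma, adjusted p = 0.299 and 0.274). With own-set controls they were -0.13 ± 0.30 and -0.08 ± 0.30.

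The section from miR-379 to miR-410 held 43 of the tested assays. Its median change was -0.73 at E15.5 and -1.16 at E16.5, with 5 and 21 assays past the threshold, beside 12.6% and 42.2% of all tested assays. With own-set controls the medians were -0.65 and -0.95, with 0 and 13 past it, beside 7.92% and 32.6%. In neurons and muscle this section is transcribed as a unit under control of Mef2 factors. At its far end, hsa-miR-410 read -0.35, -0.15, -1.05 and -0.95 in WT and -2.12, -1.92, -1.60 and -1.96 in KO at E16.5, without overlap. It fell by 1.27 ± 0.34, 2.41-fold (limma, adjusted p = 0.0103), and by 0.89 ± 0.32 with own-set controls (adjusted p = 0.0429). At E15.5, -1.67, -1.32, -1.16 and -1.66 in WT stood against -2.11, -1.92, -2.998 and -3.02 in KO. Those groups did not overlap either, and the change of -1.06 ± 0.34 lay just outside the threshold (limma, adjusted p = 0.0502).

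At the near end, the 5p arms of miR-379 and miR-411 gave values close to each other. At E16.5, mmu-miR-379 fell by 1.10 ± 0.42 and hsa-miR-411 by 1.16 ± 0.39 (limma, adjusted p = 0.0441 and 0.0281). With own-set controls the changes were -0.72 ± 0.37 and -0.78 ± 0.36 (adjusted p = 0.131 and 0.102). Their 3p arms, which share a seed, lie in set 2. rno-miR-379# changed by -0.27 ± 0.37 and hsa-miR-411# by -0.86 ± 0.43 at E16.5 (limma, adjusted p = 0.537 and 0.112). With own-set controls these became -0.65 ± 0.31 and -1.23 ± 0.42 (adjusted p = 0.105 and 0.0349), so that hsa-miR-411# fell.

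The lowest fitted change of the cluster, that of mmu-miR-666, rests on values set at the detection limit. It read -6.18, -6.36, -6.71 and -6.37 in WT and -11.16, -7.58, -7.26 and -11.23 in KO at E16.5. KO replicates 1 and 4 were undetected and stand at the limit, and the fitted fall was 2.90 ± 0.82 (limma, adjusted p = 0.0126). With undetected wells left missing the change was -1.01 and did not pass (limma, adjusted p = 0.0846). The 2 detected KO samples lay below all 4 WT samples. Its change at E15.5, -1.71 ± 0.82, did not pass (limma, adjusted p = 0.157), with KO replicate 2 undetected.

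hsa-miR-494 and mmu-miR-380-5p fell more than most. At E16.5 hsa-miR-494 read -3.23, -3.22, -4.34 and -4.80 in WT and -5.47, -5.47, -5.54 and -6.03 in KO, and fell by 1.73 ± 0.42, 3.31-fold (limma, adjusted p = 0.0078). The WT samples were spread over more than the KO samples, and no KO sample reached them. mmu-miR-380-5p, a miRNA that restrains p53 in neuroblastoma, read -3.36, -2.94, -4.58 and -4.31 in WT and -5.79, -5.45, -5.26 and -5.71 in KO at that age. It fell by 1.76 ± 0.46, 3.38-fold (limma, adjusted p = 0.0099). With own-set controls both also fell at E16.5, by 1.35 ± 0.37 and 1.38 ± 0.43 (adjusted p = 0.0175 and 0.0259). At E15.5 mmu-miR-380-5p read -4.68, -4.85, -4.65 and -4.85 in WT and -5.69, -5.20, -7.39 and -6.89 in KO. It fell by 1.54 ± 0.46 against all controls (limma, adjusted p = 0.0375), and the change with own-set controls was -1.14 ± 0.43 (adjusted p = 0.115). With the replicate block the E15.5 call was lost (limma, adjusted p = 0.0819). The hsa-miR-494 change at E15.5 was -1.14 ± 0.42 (adjusted p = 0.0754).

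mmu-miR-495 read -0.91, -0.12, -1.66 and -1.36 in WT and -2.76, -2.999, -1.89 and -2.96 in KO at E16.5. It fell by 1.64 ± 0.43, 3.12-fold, and by 1.26 ± 0.41 with own-set controls (limma, adjusted p = 0.0097 and 0.0294). KO replicate 3 came within 0.23 of the lowest WT sample. mmu-miR-485-3p, in set 2, read -2.85, -2.66, -3.40 and -2.41 in WT and -4.19, -3.80, -3.39 and -4.18 in KO, where WT replicate 3 and KO replicate 3 met. It fell by 1.06 ± 0.34 and, with own-set controls, by 1.44 ± 0.32 (limma, adjusted p = 0.0205 and 0.006). mmu-miR-134, known for its role at dendritic spines, fell by 1.03 ± 0.35 at E16.5 (limma, adjusted p = 0.0276), and its change with own-set controls was -0.66 ± 0.29 (adjusted p = 0.0933).

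The miR-376 hairpins, whose transcripts are known to be edited in the seed in some tissues, were measured by 6 tested assays. Among the 3p arms, mmu-miR-376a fell by 1.66 ± 0.50 and mmu-miR-376c by 1.35 ± 0.47 at E16.5 (limma, adjusted p = 0.0164 and 0.0305). Neither passed with own-set controls (adjusted p = 0.0645 and 0.131). mmu-miR-376b changed by -1.33 ± 0.58 (limma, adjusted p = 0.0712). Among the 5p arms, mmu-miR-376a# read -6.95, -7.71, -7.43 and -6.91 in WT and -8.45, -8.27, -8.21 and -11.23 in KO, where KO replicate 4 was undetected. It fell by 1.79 ± 0.69 (limma, adjusted p = 0.0444) and by 2.17 ± 0.67 with own-set controls (adjusted p = 0.0259). With undetected wells left missing its change was -1.06 and did not pass (limma, adjusted p = 0.111). hsa-miR-376a# changed in the same direction without passing, by -1.58 ± 0.90 (limma, adjusted p = 0.15), and mmu-miR-376b# by -0.40 ± 0.54 (adjusted p = 0.536). At E15.5 none of the named miR-376 assays passed in limma (adjusted p = 0.245 for mmu-miR-376c and higher for the others).

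Of the other assays that passed at E15.5, mmu-miR-329 read -5.16, -5.10, -4.76 and -5.49 in WT and -6.01, -5.87, -7.95 and -6.74 in KO. It fell by 1.51 ± 0.41 there and by 1.36 ± 0.41 at E16.5 (limma, adjusted p = 0.0236 and 0.0159). hsa-miR-382 read 0.46, 0.47, 1.39 and 1.36 in WT and 0.03, 0.32, -0.54 and -0.32 in KO, where 0.13 separated the nearest samples. It fell by 1.05 ± 0.33 at E15.5 and by 0.90 ± 0.33 at E16.5 (limma, adjusted p = 0.0487 and 0.0411). hsa-miR-369-5p fell by 1.63 ± 0.48 at E15.5 (limma, adjusted p = 0.034), and its change at E16.5 was -1.01 ± 0.48 (adjusted p = 0.0923). None of these 3 passed with own-set controls at either age (limma, adjusted p = 0.0873 to 0.267), and with the replicate block none passed at E15.5 (adjusted p = 0.0718, 0.16 and 0.0718 in the order named). The assays that fell at both ages against all controls were these first 2 with hsa-miR-433, hsa-miR-543 and mmu-miR-380-5p. At E15.5 hsa-miR-543 fell by 1.17 ± 0.37 (limma, adjusted p = 0.0431). With own-set controls its change there was -0.78 ± 0.31 (adjusted p = 0.13). With the replicate block its E15.5 call was lost (limma, adjusted p = 0.137). The comparisons at the ages use different samples.

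Some mature miRNAs were read by 2 or 3 assays, whose values differed both between and within sets. At E16.5 hsa-miR-543 in set 1 changed by -1.28 ± 0.37 and mmu-miR-543 in set 2 by -0.77 ± 0.50, and with own-set controls by -0.90 and -1.15. The former passed under both references (limma, adjusted p = 0.0129 and 0.0368). The latter passed under neither (adjusted p = 0.203 and 0.073). The third assay, rno-miR-543 in set 1, was detected in only 2 samples of each genotype at that age. Its change was -1.33 ± 0.67 with the undetected samples at the limit and -2.29 with them left missing. hsa-miR-487b in set 1 and mmu-miR-487b in set 2 both fell, by 1.53 ± 0.42 and 1.04 ± 0.37 against all controls (limma, adjusted p = 0.0114 and 0.0336). With own-set controls the order was turned, at 1.15 ± 0.38 and 1.42 ± 0.34. For miR-409-3p, hsa-miR-409-3p in set 1 changed by -0.72 ± 0.33 and RNO-MIR-409-3P in set 2 by -0.15 ± 0.35, and with own-set controls by -0.35 and -0.53. The 2 assays of miR-381-3p, both in set 1, gave -1.67 ± 0.63 for hsa-miR-381 and -0.48 ± 0.35 for rno-miR-381. They share a set, and their difference was not tested. The 2 assays of miR-376a-5p, both in set 2, gave -1.79 for mmu-miR-376a# and -1.58 for hsa-miR-376a#.

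Arms were spread unevenly over the sets. Both arms were tested for 10 hairpins, and in 7 of these the arms had assays in different sets. All 7 tested assays with a # lie in set 2. Against all controls the median change of the 19 assays of 5p arms was -0.98 at E15.5 and -1.33 at E16.5, and that of the 37 assays of 3p arms was -0.54 and -1.04. With own-set controls the medians of 5p and 3p arms were -0.73 and -0.43 at E15.5 and -0.95 and -0.95 at E16.5. For the 39 set 1 assays the median was -0.98 and -1.33 against all controls and for the 18 set 2 assays -0.22 and -0.71. With own-set controls the set medians were -0.59 and -0.61 at E15.5 and -0.95 and -1.09 at E16.5. So set 2 minus set 1 was 0.77 at E15.5 and 0.61 at E16.5 against all controls, and -0.02 and -0.14 with own-set controls. The 5 highest changes at E16.5 were those of mmu-miR-673-3p, RNO-MIR-409-3P, rno-miR-379#, mmu-miR-541 and mmu-miR-376b#, all in set 2.

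**Figure D4:**
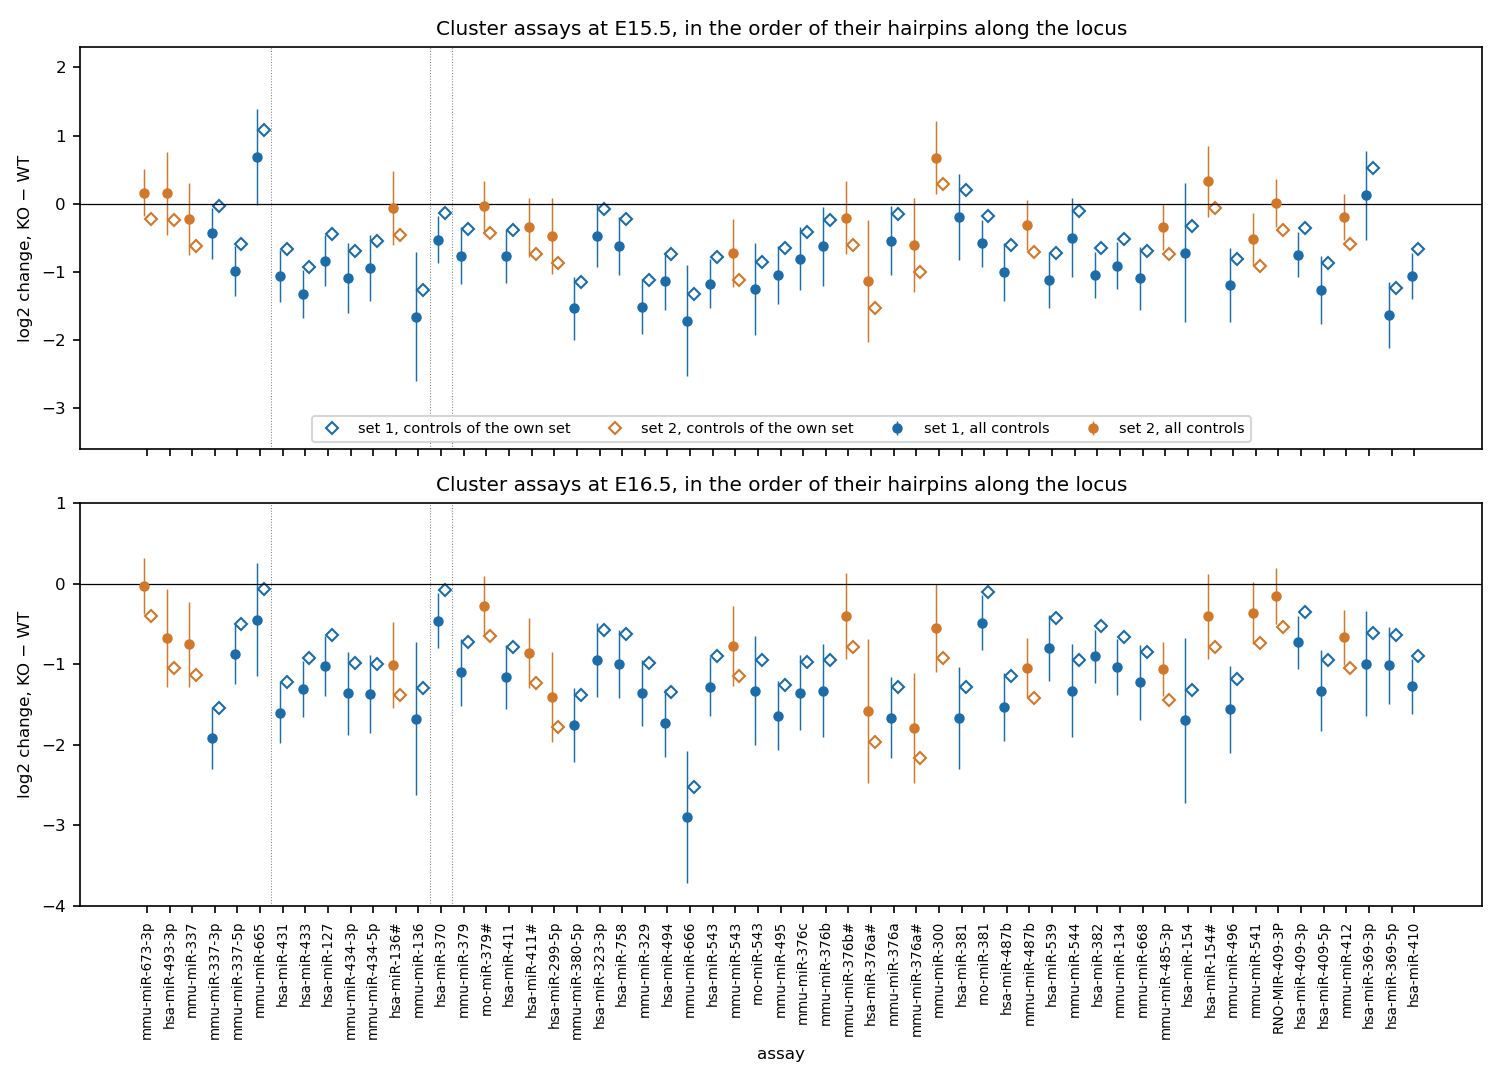
Change of KO minus WT (log2) of the 57 tested cluster assays at E15.5 (top) and E16.5 (bottom), in the order of their hairpins along the locus, with dotted lines between sections. Filled circles with SE are against all controls, open diamonds against own-set controls, and colour gives the set of sub-arrays. At E16.5 all 57 lie below 0, the lowest is mmu-miR-666 at -2.90, with 2 KO samples at the detection limit, and set 2 assays (orange) move down and set 1 assays (blue) up when own-set controls are used.

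Between E15.5 and E16.5 no cluster assay passed in either genotype, and the same was true of the difference of the KO effect between the ages. In WT 0 of 57 passed in limma, beside 0% of all tested assays, and 10 had an unadjusted p under 0.05, beside 19.1%. The median change was 0.65, higher at E16.5, beside 0.62 over all tested assays, and 1 of 57 was below 0, beside 8.21%. The smallest p were those of mmu-miR-487b (0.93 ± 0.37), mmu-miR-434-3p (1.29 ± 0.51) and mmu-miR-376a (1.26 ± 0.50), each with an adjusted p of 0.24 in limma. In KO 0 of 57 passed, beside 0% of all tested assays, and 1, hsa-miR-369-5p (1.17 ± 0.48), had an unadjusted p under 0.05, beside 6.45%. The next smallest p in KO were those of hsa-miR-539 (0.83 ± 0.41) and rno-miR-381 (0.70 ± 0.35). The median was 0.26, beside 0.24, and 14 of 57 were below 0, beside 30.2%. For the difference, 0 of 57 passed in limma, beside 0%, and 1 had an unadjusted p under 0.05, mmu-miR-337-3p, beside 3.81%. After it came hsa-miR-381 (-1.48 ± 0.90) and mmu-miR-300 (-1.23 ± 0.77). The median difference was -0.38, beside -0.36 over all tested assays, and 47 of 57 were below 0, beside 76.5%. The comparison in KO rests on KO replicates 3 and 4 at E15.5: without them its median was -0.35 and that of the difference -0.98.

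The authors' deposited table of fold changes was set against the Ct values. For 47 of 47 cluster assays with 1 well and a Ct in all samples, each value matched, within 0.001 cycles, the KO mean minus the WT mean of Ct values set against U6 in their own sub-array. So a value above 0 in the authors' deposited table stands for less RNA in KO, although its columns are headed as KO over WT. The placing of wells in sub-arrays was checked against these same values, so the match is no separate check of it. Of the 57 tested cluster assays, 52 were above 0 at E15.5 in the authors' deposited table, with a median of 0.73, and 56 at E16.5, with a median of 0.84. For hsa-miR-433 the authors' deposited table gives 1.10 and 0.86, for mmu-miR-337-3p 0.16 and 1.58, and for hsa-miR-370 0.30 and 0.02.

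Other miRNAs of the locus outside the 46 numbers had 9 assays, and MMU-MIR-1193 alone was tested. It changed by -0.41 at E15.5 and by -0.61 at E16.5 (limma, adjusted p = 0.64 and 0.357). miR-451, which matures without Dicer, changed by -0.61 ± 0.46 and -0.82 ± 0.46 (limma, adjusted p = 0.381 and 0.151), and with own-set controls by -0.22 ± 0.43 and -0.44 ± 0.43. Markers of cell types were read from the same panel. Of 12 tested neural and chromaffin miRNAs, 1 fell at E15.5 and 2 at E16.5, with medians of -0.38 and -0.84, beside 12.6% and 42.2% of all tested assays and medians of -0.62 and -1.03. Their summed level (log2) was 0.94 to 1.67 in WT and 0.23 to 1.70 in KO at E15.5, and 1.27 to 2.20 in WT and 0.86 to 1.66 in KO at E16.5. Of 5 tested miRNAs of a list named for steroid-producing and gonadal cells, 2 and 3 fell, beside the same 12.6% and 42.2%. Those at E15.5 were hsa-miR-21 and mmu-miR-202, joined at E16.5 by hsa-miR-210. Whether the members of this list mark these cells was not tested. The median changes of the 5 were -0.62 and -1.48. At E15.5, 4 of the 5 changes were below 0, and the highest was 0.47. Their summed levels were -0.76 to -0.22 in WT and -1.99 to -0.68 in KO at E15.5, which overlap, and -0.19 to 0.97 in WT and -1.56 to -0.79 in KO at E16.5, which do not. Single assays with every KO sample below every WT sample at E16.5 made up 40.5% of all tested assays. Of 13 of mesenchyme and muscle 0 and 2 fell, and of the endothelial, erythroid, white blood and epithelial lists 0 fell at either age (limma), beside the same shares. The part of cell numbers in the cluster's changes was not tested.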

How the data were processed

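The deposited table holds Ct values without normalization from TaqMan OpenArray panels after Megaplex reverse transcription, per the labels, in 846 wells of 16 samples and 2 no-template columns. RNA came from an RNAqueous Micro kit, per the labels' protocols. No source used here gives the instrument software, thresholds or preamplification. A second deposited table holds the authors' fold changes on a log2 scale. The titles of the E15.5 samples numbered 1 carry an R that is not explained, and both were kept.

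Levels were fitted with limma 3.58.1 in R 4.3.3 (group means over 16 samples, eBayes, Benjamini-Hochberg over all tested assays, threshold 0.05). The procedure was tried on simulated data with independent noise per assay, which do not copy shifts that all assays of a sample share. Wells of 1 name were averaged. The number of samples limits the precision: the median SE of a change was 0.46. Deviations from the group mean in same-numbered WT and KO samples had correlations of 0.34, 0.23, 0.15 and 0.11 at E15.5. At E16.5 the correlations were -0.17, -0.05, 0.10 and -0.10. Pairs with different numbers were not compared, so whether the number matters was not tested. Reported values come from the fit without pairs, and blocked values stand beside the E15.5 calls. The labels do not state that numbers mark litters.

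Members, lists and alternatives were chosen with earlier results of these data known. Named assays were up to 12 of the largest falls and the 5 highest changes per age, the 3 smallest p per age comparison, landmark miRNAs, and hairpins with both arms tested. Not every such assay is named in the text. Marker lists were matched by miRNA number.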

Additional observations from a re-analysis of the deposited data

Results flagged for a closer look

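The levels of the 57 tested assays, the cluster's median level and the control gap between the sets gave 236 groups of 4 samples, which were examined for a sample standing apart by Dixon's criterion, and 9 were found. Chance gives about 1 in 20 such groups, which is more than were found here.

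In WT at E15.5, hsa-miR-411# was at -8.61 in replicate 4, with the others between -6.86 and -6.53. mmu-miR-379 was at 0.09 in replicate 3 of that group, with the others between -0.63 and -0.59, and hsa-miR-323-3p at -3.92 in replicate 4, with the others between -3.28 and -3.19. In WT at E16.5, mmu-miR-337-5p was at -1.88 in replicate 2, with the others between -2.91 and -2.86. These samples are among the 4 with a control gap over 1.5 cycles, and the part of that gap was not tested.

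In KO at E15.5, mmu-miR-412 was at -5.60 in replicate 2, with the others between -6.68 and -6.65. In KO at E16.5, mmu-miR-376c was at -1.89 in replicate 3, with the others between -2.76 and -2.64, and hsa-miR-154# at -6.47 in the same sample, with the others between -7.95 and -7.79. hsa-miR-494 was at -6.03 in replicate 4, with the others between -5.54 and -5.47. mmu-miR-376a# was undetected in replicate 4 and stood at -11.23, with the others between -8.45 and -8.21.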

How the results depend on the processing

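With 4 samples per group, the counts of cluster assays past the threshold moved more than their median change. At E15.5 (6 of 57) the count was 1 with own-set controls, 10 with U6 alone, 3 with no normalization, 11 of 45 assays detected in all 16 samples, 0 with the miRNA median as reference, 0 in a fit of the 2 groups only, 0 with the replicate block, 0 with the block and own-set controls, and 2 without both samples numbered 1. At E16.5 (27 of 57) it was 17 with own-set controls, 12 with U6 alone, 0 with no normalization and 2 with the miRNA median (1 lower, 1 higher). The replicate block left 18 there, and an age comparison with the block within an age could not be fitted. The miRNA median is that of the assays detected in all 16 samples, and by its construction it takes out what these share. The median change of the cluster then was 0.081 at E15.5 and -0.091 at E16.5, beside 0.185 and -0.022 over all tested assays. Between ages in WT it was 0.163. hsa-miR-382 at E16.5 was 0.108 (limma, adjusted p = 0.752), and over its 24 settings the change ran from -1.03 to 0.108. With no normalization the median was -0.509 at E16.5 and 0.301 for the difference between ages. By construction this setting leaves out the control Ct, which was lower in KO by 0.59 cycles at E16.5 and higher by 0.09 at E15.5.

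Leaving out 1 sample gave 0 to 19 calls at E15.5 and 11 to 30 at E16.5, and medians of -1.06 to -0.483 and -1.252 to -1.002. Calls over all tested assays were not counted in these fits. At E15.5 the count was 19 without KO replicate 2, 0 without KO replicate 3, KO replicate 4 or WT replicate 3, 1 without WT replicate 4 and 3 without WT replicate 1. At E16.5 it was 11 without WT replicate 2 or KO replicate 4, and 12 without WT replicate 1 or KO replicate 1. The medians ran from 0.573 to 0.731 between ages in WT, 0.034 to 0.496 in KO and -0.642 to -0.114 for the difference, with 0 calls each. Among alternatives added after seeing the data, leaving out KO replicates 3 and 4 at E15.5 gave 0 calls and medians of -0.04 at E15.5, -0.35 between ages in KO and -0.978 for the difference, and leaving out the 4 WT samples with a wide gap gave 0 calls at both ages. Over all tested assays the former gave 7 calls of 340 and a median of -0.116 at E15.5. The latter gave 6 of 312 at E15.5 and 5 of 312 at E16.5. The Ct limit (26 or 30), missing values left missing, no filter and the lowest Ct per name kept each count within 1.5 times. At E16.5 mmu-miR-337-3p passed in 22 of 24 settings and hsa-miR-410, hsa-miR-431, hsa-miR-433, hsa-miR-487b, hsa-miR-494, hsa-miR-543, mmu-miR-380-5p and mmu-miR-495 in 21 each. The other assays called at E16.5 passed in 8 of 24 (mmu-miR-434-3p) to 19 of 23 (mmu-miR-666). The 6 called at E15.5 passed in 7 (hsa-miR-382) to 14 (hsa-miR-433) of 24. The settings share most samples and are not independent, and the same count was not made for all tested assays.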
